A study of Caenorhabditis elegans with 2 samples.

Results

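The genes described here are svh-5, the gene that was tagged for chromatin immunoprecipitation, and 7 genes of the JNK pathway of axon regeneration in Caenorhabditis elegans, which are svh-1, svh-2, shc-1, mlk-1, mek-1, kgb-1 and vhp-1. They were chosen by name and not by a rule on signal, although earlier results of these data were known. All 8 were found among the 19985 protein-coding genes of the gene models. A ranked region was assigned to a gene when its summit lay between 1000 bp upstream of the annotated 5′ end and the end of the gene, which gave 91 of the 118176 regions of the joint ranking. Of these, 17 lay at svh-5 and 74 at the 7 other genes. The animals were whole L4 larvae of strain OP719, aged 66 hours and grown from starved L1 larvae after bleaching. They carried the transgene wgIs719, in which tag-97 is fused to TY1, EGFP and 3xFLAG beside a functional unc-119, in an unc-119 (tm4063) mutant background, and chromatin bound by the fusion was recovered with an antibody against GFP. The labels name svh-5 as the targeted gene, while the gene models hold no gene named tag-97, so the match between these names rests on the labels alone. There were 2 biological replicates of 1 group and no contrast between conditions, so values of regions are described and not tested. A control immunoprecipitation was not analysed here, and whole animals mix all tissues, so binding in few cells and weak binding in many cannot be told apart.

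JNK signalling in the worm works as a relay. A growth factor binds a receptor tyrosine kinase, an adaptor passes the signal to a MAP kinase kinase kinase, and a MAP kinase kinase and a JNK-like MAP kinase follow, until a dual-specificity phosphatase switches the MAP kinase off. In neurons this relay promotes the regrowth of cut axons, and the svh genes take their name from suppressing the lethality of worms that lack the phosphatase VHP-1. RefSeq describes the product of svh-5 as an Ets-domain protein. Proteins with this domain bind DNA around a GGAA core, and svh-5 is a gene apart from ets-4, the ETS gene known for inducing svh-2 after axon injury.

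Sequences of 3 ranked regions and of the bases before svh-2 are given because they are the places on which the description of these genes turns. They were read from the RefSeq copy of assembly WBcel235, which is ce11, along the strand of each gene, 5′ to 3′, and capitals mark the core GGAA or its reverse complement TTCC. The regions at svh-5, mlk-1 and mek-1 are the highest at each gene, and the last sequence is the 250 bases directly upstream of the 5′ end of svh-2.
svh-5, X:15373917-15374212, minus strand, in an intron: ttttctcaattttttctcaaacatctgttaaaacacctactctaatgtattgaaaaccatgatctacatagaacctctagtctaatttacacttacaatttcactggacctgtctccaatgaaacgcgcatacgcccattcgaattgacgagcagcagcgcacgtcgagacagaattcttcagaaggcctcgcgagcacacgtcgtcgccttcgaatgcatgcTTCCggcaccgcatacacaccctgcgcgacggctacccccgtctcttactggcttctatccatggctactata
mlk-1, V:5059288-5059583, minus strand, at a coding exon: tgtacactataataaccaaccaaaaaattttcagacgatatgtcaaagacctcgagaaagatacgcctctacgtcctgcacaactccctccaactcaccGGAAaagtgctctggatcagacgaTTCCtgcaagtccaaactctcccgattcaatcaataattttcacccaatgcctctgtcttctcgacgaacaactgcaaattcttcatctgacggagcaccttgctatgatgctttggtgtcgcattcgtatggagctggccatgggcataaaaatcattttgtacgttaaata
mek-1, X:7480076-7480371, plus strand, at a coding exon: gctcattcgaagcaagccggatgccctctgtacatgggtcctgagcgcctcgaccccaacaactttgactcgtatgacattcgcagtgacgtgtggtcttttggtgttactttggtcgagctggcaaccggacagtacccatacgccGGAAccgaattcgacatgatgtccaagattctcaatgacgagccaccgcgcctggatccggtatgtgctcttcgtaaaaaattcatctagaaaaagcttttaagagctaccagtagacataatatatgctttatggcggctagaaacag
svh-2, X:6553037-6553286, plus strand, upstream of the gene: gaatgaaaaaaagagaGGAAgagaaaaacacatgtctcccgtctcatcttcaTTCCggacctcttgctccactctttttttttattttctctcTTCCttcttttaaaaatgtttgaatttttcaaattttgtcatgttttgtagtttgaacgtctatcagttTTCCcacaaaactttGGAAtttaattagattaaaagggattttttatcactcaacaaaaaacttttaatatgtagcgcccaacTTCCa
The core occurred once in the regions of svh-5 and mek-1, 2 times in that of mlk-1 and 6 times in the bases before svh-2. The longer form CCGGAA was found in each of these 4 sequences, which were picked for their place and signal, while over all regions it was in 17.6% at svh-5, 17.6% at the 7 other genes and 12.7% of the ranking, and in 8.56% of all promoters. These counts describe letters, not bound sites.

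The strongest signal at any of the 8 genes lay in svh-5 itself. The signal is the value the authors' peak calling gave each region, on an unstated scale, so each is set against other regions of the same list. The highest region of svh-5 had a signal of 58.0 in the joint ranking, the 99.5th percentile of all ranked regions, and 38.8 in replicate 1 and 32.8 in replicate 2 of the ranking that set the replicates against each other. These replicate values stood at the 99.8th and 99.2nd percentiles of their replicates, so the region was high in both. The global irreproducible discovery rate, or IDR, is low where a region ranks high, and alike, in both inputs. For this region it was 0.0187 in the joint ranking and 0.00799 in the ranking of the replicates. The second value passed the 0.01 threshold of the thresholded lists and the first did not.

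None of the 8 genes held a region of the joint thresholded list, against a background of 1.29% of protein-coding genes. At such a background a count of 0 among 8 says little about these genes. The count was also 0 in the thresholded lists of replicate 1 and replicate 2, where 0.275% and 0.305% of genes held a region. In the conservative list, which comes from ranking the replicates against each other, 1 of the 8 genes held a region, and the background was 0.791%. That gene was svh-5, and none of the 7 others was in any thresholded list. At an IDR of 0.05 or less in the joint ranking, svh-5 was again the single gene, against 4.3% of all genes.

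The locus of svh-5 is taken apart from the others because the transgene adds copies of its sequence, and copy number and binding cannot be told apart there. The gene lies at X:15369974-15377824 on the minus strand (WBGene00006462). Its 17 regions had a median signal of 28.1 and a range of 3.78 to 58.0, against a median of 18.6 for the 18070 regions on X outside both the gene and a segment of raised signal at 9.1 to 11.6 Mb. The ratio of these medians was 1.51. In the replicates' own matched signals, svh-5 had medians of 13.2 in replicate 1 and 20.1 in replicate 2, and the rest of X had 10.4 and 11.9. Both replicates were thus higher at svh-5, by different amounts. Density was also high, with 1.92 regions per kb of the span, against 1.14 at the 7 other genes and a median of 1.24 over all protein-coding genes.

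Of the 17 regions of svh-5, 7 (41.2%) lay above the 90th percentile of all ranked regions, a signal of 34.4, against 9 of 74 (12.2%) at the 7 other genes and 10% over the whole ranking. A matched signal in the replicates was found for 16 regions of svh-5 and 70 of the others. Above the 90th percentile of replicate 1 were 6 of 16 regions of svh-5 (37.5%), 13 of 70 of the other genes (18.6%) and 11.0% of all matched regions. Above that of replicate 2 were 8 of 16 (50%), 9 of 70 (12.9%) and 11.0%. Both replicates passed at 4 regions of svh-5 (25%) and at 4 of the other genes (5.71%), against a background of 2.39% of matched regions. Overlapping joint regions can share a match, and the 4 of svh-5 came from 3 distinct matches. The 4 of the other genes were 2 at mlk-1 and 2 at vhp-1. The 16 regions of svh-5 held 12 distinct matches in replicate 1 and 13 in replicate 2. The 70 of the other genes held 60 in each. The shares in single replicates thus count some matches more than once. The shares at svh-5 were above the background in each replicate, whereas the shares of the other genes were nearer to it.

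**Figure D1:**
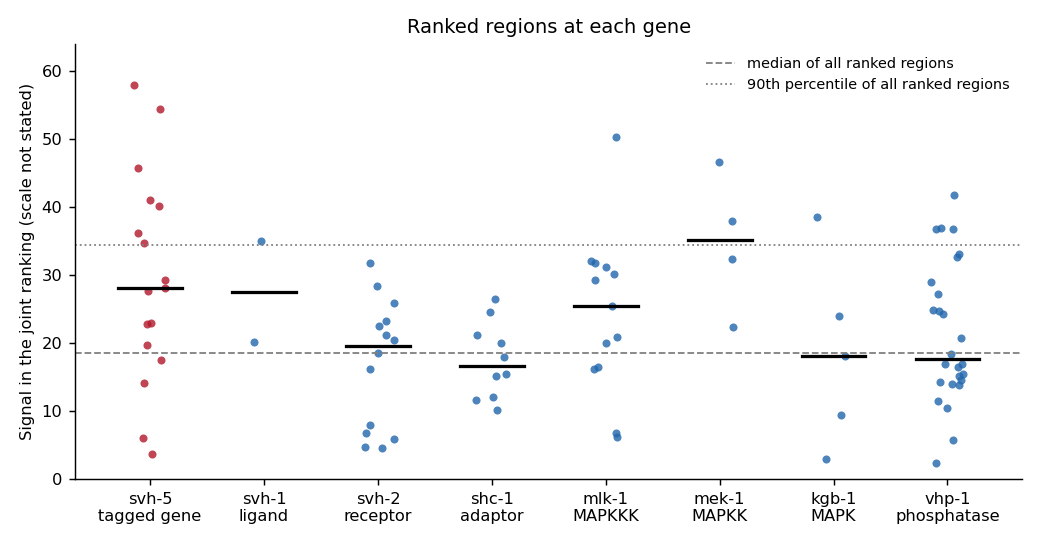
Each point is a ranked region at svh-5 (red) or at one of the 7 other genes (blue), with its signal in the joint ranking on the vertical axis, bars at gene medians, and dashed and dotted lines at the median and 90th percentile of all ranked regions. At svh-5, 7 of 17 points lie above the dotted line, at mek-1 2 of 4, and at svh-2 and shc-1 0 of 14 and 0 of 10.

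The 7 regions of svh-5 above the 90th percentile were spread along the gene, around the annotated 5′ end, in the long intron and in the 3′ part, with lower regions among them. The gene models give it a long transcript and a short one, and the short one starts 4763 bp inside the gene, at X:15373061. Around the 5′ end of the long transcript, the region 886 bp upstream had 41.1 in the joint ranking, with 11.2 in replicate 1 and 28.5 in replicate 2. The region 282 bp upstream had 29.3, with 2.96 and 16.7 in the replicates. The region 150 bp downstream, at a coding exon, had 45.7, with 30.8 and 23.7. Of these 3, the upstream ones were higher in replicate 2 than in replicate 1, and only that at 886 bp passed the 90th percentile of replicate 2. The one at the coding exon was above the 90th percentile in both.

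The long intron of svh-5, X:15373062-15377622, spans 4561 bp and held regions of 28.1, 14.2, 22.8, 17.6 and 19.8 before its highest one. The region of 58.0 has its summit 3759 bp downstream of the 5′ end, in this intron and 1004 bp upstream of the start of the short transcript. A neighbour 3530 bp downstream had a joint signal of 3.78 and shares the replicate match of the highest region, and its sequence aligned to 354 places in the genome. It is the other svh-5 region in the conservative list, so the 2 entries there rest on 1 pair of matched replicate regions. The sequence of the region of 58.0, shown above, aligned to 1 place only, as did each of the remaining svh-5 regions.

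In the 3′ part, the region 63 bp inside the short transcript had 40.2 in the joint ranking, with 30.4 in replicate 1 and 21.5 in replicate 2. Further along, a coding-exon region 6398 bp from the 5′ end had 54.4, with 14.4 and 27.5. A 3′ UTR region at 7771 bp had 36.3, with 26.3 and 7.37. A region of 34.7 at 5794 bp had no match in the ranking of the replicates. Lower regions at 5174, 6866 and 7251 bp had 23.0, 6.11 and 27.7. Of these 7 regions 6 had a match, and 3 of them were higher in replicate 1 and 3 in replicate 2. The region 63 bp inside the short transcript shares its replicate 1 match with the one at 5174 bp. Those at 6866 and 7251 bp also share a match in replicate 1, and those at 6398 and 6866 bp share one in replicate 2. The split thus counts some matches more than once.

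**Figure D2:**
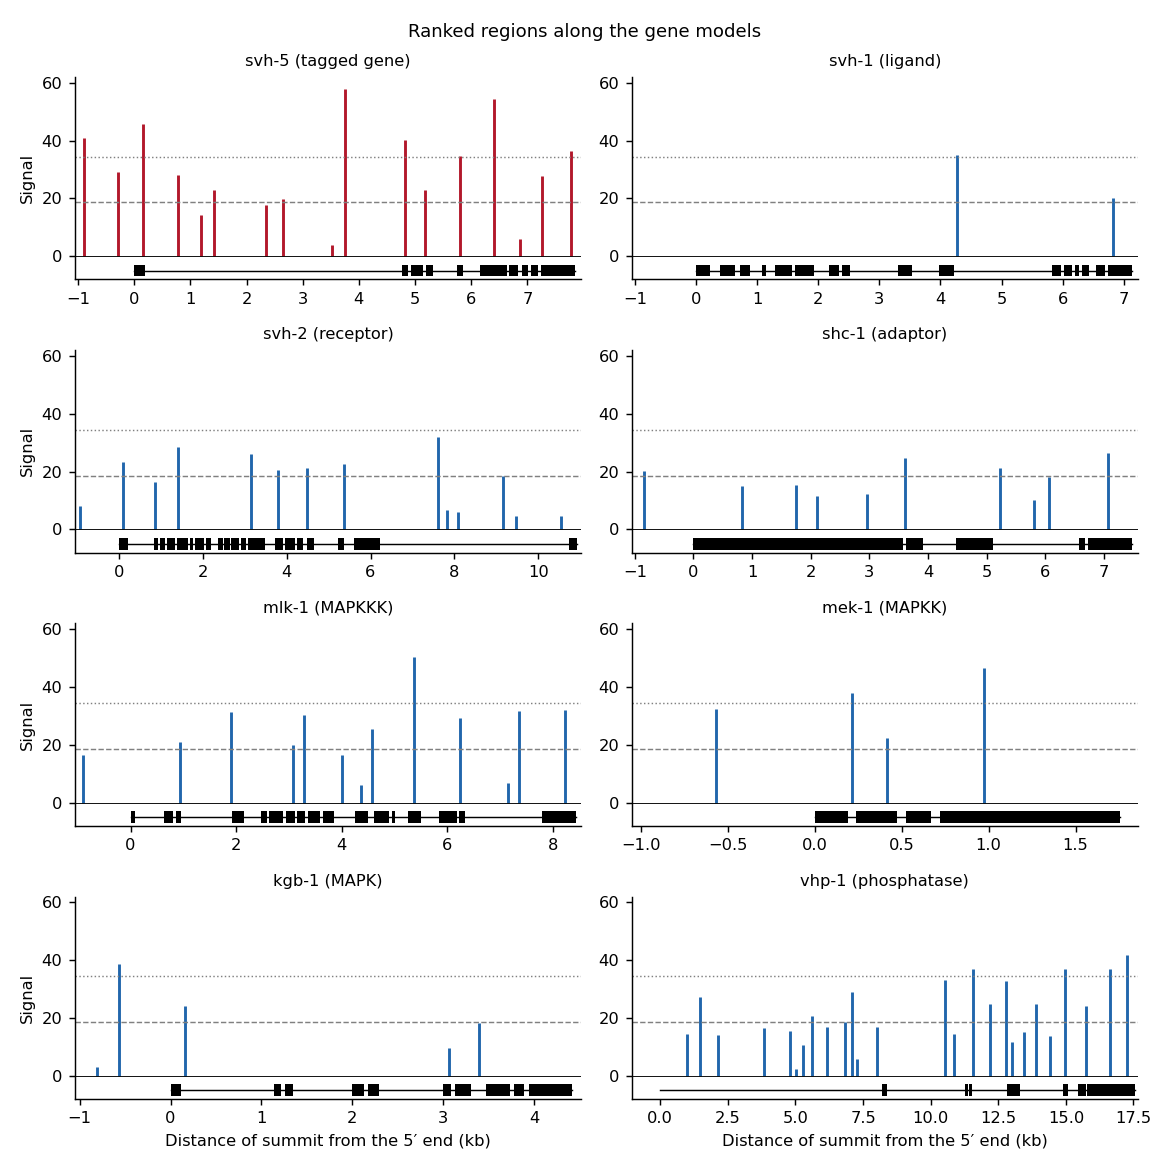
Vertical lines are ranked regions at each of the 8 genes, placed by the distance of the summit from the annotated 5′ end (kb, transcription running left to right), with the joint signal as height, exons of all transcripts as black boxes, and dashed and dotted lines at the median (18.6) and 90th percentile (34.4) of all ranked regions. svh-5 has high lines at its 5′ end and over its 3′ exons, the highest at 3759 bp in the long intron, and vhp-1 has its 4 lines above the dotted one in its 3′ part.

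The ligand of the pathway, the secreted growth factor SVH-1, is encoded at IV:8206614-8213741 on the plus strand (WBGene00006620). Its gene held 2 ranked regions in 8.13 kb, or 0.246 per kb, and of the 500 protein-coding genes nearest in span length 2.4% held fewer. The intronic region 4272 bp downstream had a joint signal of 35.0, with 3.31 in replicate 1 and 18.8 in replicate 2. The region at a coding exon 6824 bp downstream had 20.2, with 13.6 and 12.5. Neither lay near the 5′ end, and the higher of them was low in replicate 1.

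The receptor tyrosine kinase SVH-2 is a Met-like protein encoded at X:6553287-6564207 on the plus strand (WBGene00020504). Its 14 regions had a median of 19.5 and a range of 4.56 to 31.8, none of them above the 90th percentile. At the 5′ end, where the sequence shown above lies, a region 86 bp downstream had 23.3 in the joint ranking, with 5.34 in replicate 1 and 13.96 in replicate 2, and one 936 bp upstream had 7.98 and no replicate match. The highest region, 7614 bp downstream, had 31.8, with 16.7 and 8.52, and it overlaps another gene, aaim-1. The lowest IDR of the gene was 0.311. Of the 500 genes of nearest span length, 16.6% had a lower highest signal, so svh-2 was in the lower part of that range.

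The adaptor SHC-1, which links the receptor to the kinases below it, is encoded at I:969088-976560 on the minus strand (WBGene00018788). Its 10 regions had the lowest median of the 8 genes, 16.7, with a range of 10.2 to 26.5, and none was above the 90th percentile. The highest lay 7068 bp downstream of the 5′ end, with 14.5 in replicate 1 and 8.41 in replicate 2. At 6 of the 10 regions the sequence aligned to several places in the genome, up to 24, so signal there may not be unique to this gene. Its lowest IDR was 0.411, the highest such value of the 8 genes.

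The MAP kinase kinase kinase MLK-1 is encoded at V:5056378-5064811 on the minus strand (WBGene00003374). Its 13 regions had a median of 25.4, and the highest, at a coding exon 5375 bp downstream, had 50.3 in the joint ranking, the 98.8th percentile, with 23.9 in replicate 1 and 27.0 in replicate 2. Another coding-exon region 3278 bp downstream had 30.2, with 27.9 and 28.6. The IDR of that region in the ranking of the replicates was 0.0393, the lowest of the 7 other genes, where 0.61% of all regions of that ranking reached 0.05. Both regions were above the 90th percentile in both replicates. Of the 500 genes of nearest span length, 88.2% had a lower highest signal and 93.0% a lower median. The single region in the promoter window, 908 bp upstream, had 16.5.

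The MAP kinase kinase MEK-1 is encoded by the shortest of the genes, X:7479248-7481005 on the plus strand (WBGene00003185). Its 4 regions had the highest median of the 8 genes, 35.2, and all lay above the median of all ranked regions. The region 565 bp upstream had 32.4, with 7.53 in replicate 1 and 20.6 in replicate 2. The intronic region 216 bp downstream had 38.0, with 23.5 and 20.2, and one at a coding exon 976 bp downstream had 46.6, with 20.2 and 12.7. The region at 419 bp had 22.3 and shares its match in replicate 1 with the one at 216 bp. None of the 4 passed the 90th percentile in both replicates, although 94.8% of the 500 genes of nearest span length had a lower highest signal.

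The JNK-like MAP kinase KGB-1 is encoded at IV:405621-410035 on the minus strand (WBGene00002187). Its highest region lay 570 bp upstream of the 5′ end and is the strongest region upstream of any of the 7 other genes, with 38.6 in the joint ranking, 25.0 in replicate 1 and 16.5 in replicate 2. A region 804 bp upstream had 3.06 and shares that replicate match. The other 3 regions had 24.0, 9.48 and 18.1, and the sequences of the first and second of these aligned to 45 and 2 places in the genome. The median of the gene, 18.1, was near that of all ranked regions.

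The phosphatase VHP-1, which inactivates KGB-1, is encoded by the longest gene, II:5323276-5340829 on the plus strand (WBGene00006923). It held 26 regions with a median of 17.7 and a range of 2.36 to 41.8. No region lay between 1000 bp upstream and 200 bp downstream of its annotated 5′ end, and 4 regions in the 3′ part passed the 90th percentile of the joint ranking. They were 11550, 14966, 16619 and 17246 bp from the 5′ end, with joint signals of 36.8, 36.8, 36.9 and 41.8. The transcripts of vhp-1 have 6 different 5′ ends, and the region at 14966 bp lay 14 bp inside one of them. The region at 11550 bp had 21.8 in replicate 1 and 22.5 in replicate 2, and the highest had 12.1 and 21.9. A further region at 12790 bp had 32.7, with 30.7 and 18.2. The highest signal was near the middle for genes of this length, as 50% of the 500 nearest in span had a lower one.

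Near the annotated 5′ ends, from 1000 bp upstream to 200 bp downstream, svh-5 and kgb-1 held 3 regions each, svh-2 held 2, mlk-1, mek-1 and shc-1 held 1 each, and svh-1 and vhp-1 held 0. The highest signals in these windows were 45.7 at svh-5, 38.6 at kgb-1, 32.4 at mek-1, 23.3 at svh-2, 20.1 at shc-1 and 16.5 at mlk-1. Over whole spans, the 7 other genes together had a median signal of 20.4, against 18.6 for all ranked regions, a ratio of 1.09. The ratio was 0.950 in the ranking of the replicates, so its direction depends on the list. At svh-5, 4 summits lay in coding exons, 9 in introns, 2 in UTRs and 2 upstream, and at the 7 other genes 18 lay in coding exons, 42 in introns, 8 in UTRs and 6 upstream.

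**Figure D3:**
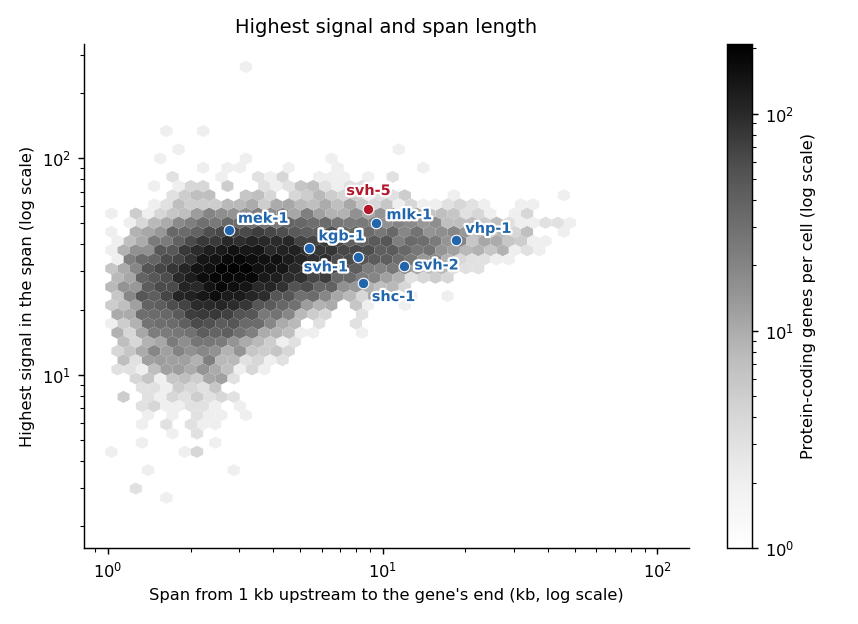
The highest joint signal in each gene's span is plotted against the length of the span (1 kb upstream to the gene's end), both on log scales, with grey cells counting protein-coding genes and points for svh-5 (red) and the 7 other genes (blue). Among the 500 genes nearest in span length, the median highest signal was 29.4 around mek-1 and 41.9 around vhp-1, and svh-5 lies near the top for its length, mek-1 and mlk-1 in the upper part, and svh-2 and shc-1 in the lower part.

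The replicates listed different numbers of regions at the members. Replicate 1 listed 10 regions at svh-5 in its own ranking and 59 at the 7 other genes, and replicate 2 listed 12 and 33. In all, replicate 1 ranked 83890 regions and replicate 2 ranked 68656, or 81.8% as many, so at the 7 other genes the shortfall of replicate 2 was larger than in the whole list, and at svh-5 there was none. By gene, replicate 1 and replicate 2 listed 15 and 5 regions at mlk-1, 22 and 12 at vhp-1, 9 and 4 at svh-2, 6 and 2 at shc-1, 4 and 4 at mek-1, 3 and 3 at kgb-1, and 0 and 3 at svh-1. Read depth was not analysed here, so its part in these counts was not tested. At the highest joint IDR, a ceiling of 0.789 that 43.7% of all joint regions share, were 2 of the 17 regions of svh-5 and 27 of the 74 of the 7 other genes.

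**Figure D4:**
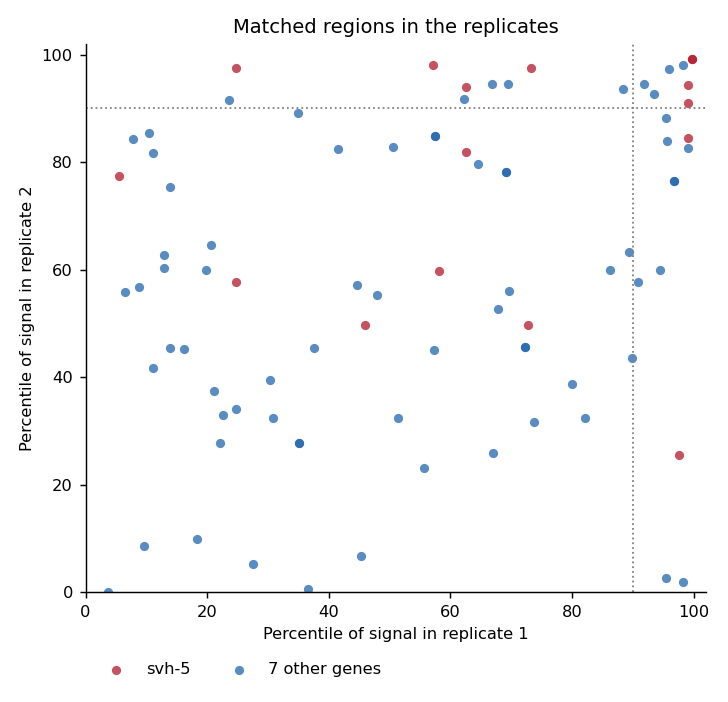
Each point is a member region with a matched signal in both replicates, placed by its percentile in replicate 1 (horizontal) and replicate 2 (vertical). Percentiles are taken among all regions of the ranking of the replicates. Dotted lines mark the 90th percentile, with svh-5 in red and the 7 other genes in blue. In the upper right corner are 4 regions of svh-5, 2 of them on the same spot, and 4 of the other genes.

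Raised signal was not limited to the svh-5 gene itself. From 10 kb upstream to 20 kb downstream of its 5′ end, bounds chosen after the values were seen, 43 regions had a median of 32.8 and 21 of them (48.8%) passed the 90th percentile, against a median of 18.1 and 10 of 51 (19.6%) in the rest of the 40 kb on either side. With the gene's own span left out, the 26 regions within these bounds had a median of 34.9 and 14 of them (53.8%) passed. All 77 regions of the flanks within 40 kb, again without the gene, had a median of 22.2, and 24 of them (31.2%) passed. The replicates differed here. Replicate 1 had a median of 12.1 within these bounds and 14.7 outside them, and replicate 2 had 18.5 and 11.2. The raise over the outer flanks was thus present in replicate 2 and in the joint ranking and was not seen in replicate 1. Both medians of replicate 1 were above 10.4, its median on X outside the raised segment and svh-5. For replicate 2 that median was 11.9. Whether the transgene holds these flanks is not given in the sources used here, and its part in the raise was not tested.

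A region of the joint thresholded list lay 15029 bp upstream of svh-5, outside any gene and outside the span used here (X:15392705-15393000). Its joint signal was 79.1, with an IDR of 0.0023, and it had 18.7 in replicate 1 and 44.0 in replicate 2. On the other side, a region 23877 bp downstream of the 5′ end had 68.3, with 19.4 and 47.0. Both were higher in replicate 2 than in replicate 1.

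**Figure D5:**
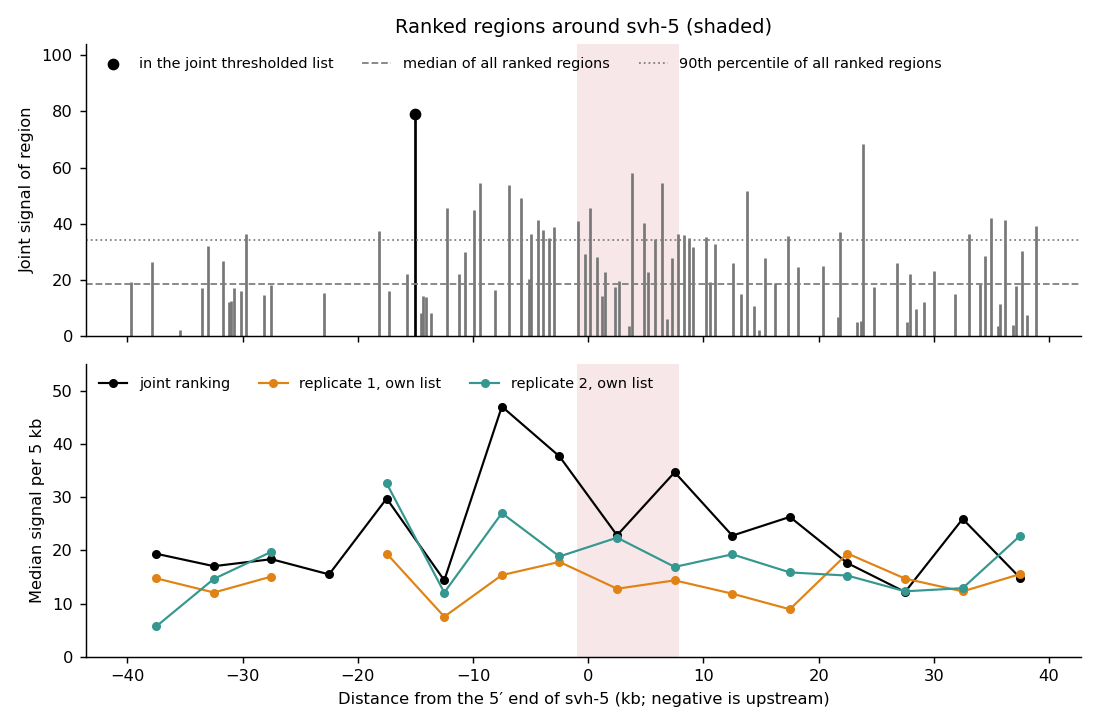
In the upper panel, lines are ranked regions within 40 kb of the 5′ end of svh-5 with their joint signal (the region of the joint thresholded list is marked by a dot, the gene's span is shaded, and transcription runs left to right). In the lower panel, points are median signals per 5 kb in the joint ranking and in each replicate's own list. The joint medians are highest between 10 kb upstream and the 5′ end, at 47.1 and 37.7, where replicate 2 reaches 27.0 and replicate 1 stays at or under 17.8.

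Among the protein-coding genes with 5′ ends within 40 kb, C33A11.2, whose 3′ end overlaps that of svh-5, had 7 regions with a median of 32.8 and a highest signal of 36.0. nfki-1 had 10 with a median of 21.99, pqn-36 had 5 with 26.6, Y15E3A.5 had 10 with 18.4, and psa-3 had 12 with 18.2. In the joint ranking, the medians thus decline with distance on the downstream side, over 3 genes. On the upstream side the nearer gene, psa-3, had a lower median than pqn-36, which lies farther away. The replicates were not compared gene by gene here. The gene unc-119 on chromosome III had 9 regions with a median of 21.2 and a highest signal of 32.3. None was above the 90th percentile and none in a thresholded list. The replicate medians at this gene were 10.7 in replicate 1 and 15.9 in replicate 2. The transgene carries a functional unc-119 as its rescue marker. Whether that copy has the sequence of this gene was not checked, so its copy number cannot be read from these values.

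Other genes of the pathway and of its neighbours in axon regeneration were taken from a list of 64 names, of which 51 were found in the gene models. It names further svh genes, JNK and p38 kinases, Rac signalling, the DLK-1 pathway and the AP-1 factors. The names not found were all svh names, and svh-11 was the single gene found under such a name. Of the 51 genes, 49 held ranked regions, 694 in all, with a median of 18.4 beside 18.6 for all ranked regions. None held a region of the joint list or of either replicate's list, where 1.29%, 0.275% and 0.305% of all genes did. In the conservative list there was 1, ced-5, or 1.96% of the 51, where 0.791% of all genes had a region. At an IDR of 0.05 or less there were 4, or 7.84% of the 51 beside 4.3% of all genes, and they include mig-2, unc-43 and cdk-14, of which unc-43 and cdk-14 are named after their values were seen. The shares of all genes are not matched for span length, and longer spans can hold more regions. unc-43 spans 27.0 kb and held 32 regions, beside a median of 4 over all protein-coding genes. No difference from the background was tested.

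Among the highest signals of that list were those of 2 genes of Rac signalling and 2 kinase genes. ced-5, a DOCK-type activator of Rac that also acts in engulfment, had a region of 71.6 located 220 bp upstream (IV:10483742-10484037), with 36.2 in replicate 1 and 32.8 in replicate 2 and an IDR of 0.0527. mig-2, a Rac-like GTPase within the raised segment of X, had 58.0 at 460 bp upstream, with 18.4 and 27.6. Both were among the 3 genes of the list whose highest signal exceeded that of svh-5, although mig-2 and svh-5 both round to 58.0. dlk-1, the MAP kinase kinase kinase of the parallel regeneration pathway, had 53.3 in the gene body, with 24.2 and 32.4. akt-1, a kinase of insulin signalling, had 51.2 in the gene body, with 21.5 and 25.2. cebp-1, a C/EBP factor that acts with ets-4 on svh-2, had a highest region of 44.2 located 726 bp upstream, with 26.3 and 19.1. The kinase genes kgb-2 and jnk-1, relatives of kgb-1, had highest signals of 29.0 and 44.3.

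By the highest signal in each replicate, on the log2 scale and over 2 replicates, 18454 genes were set against svh-5 and svh-2. Nearest to svh-5, with 38.8 in replicate 1 and 32.8 in replicate 2, were unc-89 at a distance of 0.0274, with 39.4 and 32.4, then col-175, hlh-11, rpl-7A and set-21, the last 2 of which share a region. Nearest to svh-2, with 16.7 and 18.3, were C35E7.10 at 0.00698, with 16.7 and 18.2, then sri-12, srx-43, cutl-13 and nlp-33. The likeness covers only the size of the strongest region in each replicate.

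The letters that ETS factors and other families favour were counted in the members' regions and promoters, and no difference was tested. The core GGAA, searched on both strands, was in 15 of 17 regions of svh-5 (88.2%), 71 of 74 of the 7 other genes (95.9%) and 94.9% of all 296 bp regions, and it was in all 8 promoters, taken as 250 bases before to 50 after each 5′ end, beside 95.1% of all promoters. CCGGAA, which contains the core, was in 3 regions of svh-5 (17.6%), 13 of the other genes (17.6%) and 12.7% of all regions. Among promoters it was in those of svh-1 and svh-2, beside 8.56% of all. CCGGAAGT, which contains both, was in 0 regions of svh-5, 2 of the other genes and 0.862% of all. The C/EBP form TTNNGCAA was in 5 regions of svh-5 (29.4%), 17 of the other genes (23.0%) and 28.8% of all, and in the promoters of vhp-1 and shc-1, beside 27.3% of all promoters. The palindrome TTGCGCAA, a special case of TTNNGCAA, was in none of the members' regions and 0.481% of all. TGACTCA, the AP-1 form, was in 0 regions of svh-5, 6 of the other genes (8.11%) and 2.75% of all. TGACGTCA, the CREB form, was in 0, 2 and 1.98%. The words CTAGGC and GGCCTA, taken up because they marked listed regions in earlier work on these data, were in 0 and 1 regions of svh-5, 4 and 1 of the other genes and 5.23% and 5.79% of all.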

How the data were processed

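The study is chromatin immunoprecipitation sequencing in 2 replicates of 1 group, deposited as 8 region lists on ce11. The signal column, as deposited, holds each region's own value on a scale that no source states. The deposited score runs in whole numbers up to 1000, higher for regions that reproduce better. The −log10 of the global IDR, also deposited by the authors, was turned back into an IDR here. Which peak caller and aligner were used is not given in the sources used here. Read depth is unknown, so no interval is given.

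Of 396 joint regions at an IDR of 0.01 or less, 75 are absent from the joint thresholded list of 321. The conservative list has 182 regions, and the lists of replicate 1 and replicate 2 have 70 and 71. Joint regions took replicate signals from the identical region of the ranking of the replicates, found for 100728. Of the 94371 regions of its first input, 67248 recurred in the list of replicate 1 and 0 in that of replicate 2. Of the 98139 of its second, 52357 recurred in that of replicate 2 and 0 in that of replicate 1. Percentiles are ranks within a list.

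Genes are from Ensembl release 115 and sequences from RefSeq, both WBcel235, with 1-based coordinates. Places in the genome were counted with blastn 2.17.0, taking alignments of at least 100 bp at 80% identity. Python 3.11.15, NumPy 2.4.6, pandas 2.3.3 and matplotlib 3.10.9 were used, and the assignment step was tested on simulated data. All 8 members, pathway genes with a listed region or one of the 5 highest signals, the 5 genes nearest to svh-5 and to svh-2, genes within 40 kb of svh-5 and unc-119 are named by rule. cebp-1, kgb-2 and jnk-1, relatives or partners of members, were added after their values were seen. One pathway gene of this rule and one region's sequence are not reported here. The members and lists were chosen with earlier results of these data known.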

Additional observations from a re-analysis of the deposited data

How the results depend on the processing

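Over 46 alternatives, 35 left their result within the replicate spread or within 1.5 times the count, and 11 moved it. No paired analysis was possible because there is 1 group. The count of members with a listed region was 0 in the joint list, 1 in the conservative list and 1 at an IDR of 0.05, and 0 in either replicate's list. For the pathway list these counts were 0, 1 and 4, and 0 in either replicate's list. The 74 ranked regions at the 7 other genes were 33 without replicate 1 and 59 without replicate 2. Their ratio to all ranked regions, 1.09, was 0.950 in the ranking of the replicates and 1.09 to 1.19 with a replicate left out, and the cause was not tested. The ratio at svh-5, 1.51, stayed between 1.40 and 1.58 under all its alternatives. The highest signal at svh-5, 58.0, was 38.8 in replicate 1 and 32.8 in replicate 2, on the scales of their own lists. Each of these replicate values entered the count of moved results under more than 1 setting, on a scale other than that of 58.0. Leaving out svh-5's 2 conservative regions gave 1.51. They are its highest and its lowest region, so this could not move the median and shows nothing about them. Leaving out vhp-1 gave 1.11 for the 6 remaining genes. Both alternatives were chosen after seeing the data. Members inside the raised segment could not be left out, as there were 0.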
